A study of Homo sapiens with 7 samples.

Results

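Described here are 10 genes of the cytosolic heat shock system: the HSP70 genes HSPA1A, HSPA1B and HSPA8, the HSP110 gene HSPH1, the J-domain genes DNAJB1 and DNAJA1, the HSP90 genes HSP90AA1 and HSP90AB1, the small heat shock protein gene HSPB1, and CDC37. They were picked by symbol from the 18817 genes with a row in the count tables. All 10 had a row, and all 10 passed the count minimum that left 13566 genes for testing. CDC37, the only HSP90 partner among them, was included because its level was already known to dip in these libraries, so its course is given as a description without a test. The other 9 were taken as family members, but with earlier results of these data known. The shares of all genes set beside their counts below are therefore a description and not a test of the group.

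The cells were H4, an established human neuroglioma line, and all of them carried Cry2Olig-PKR, a fusion of a protein that clusters under blue light with the kinase PKR. PKR is one of the kinases of the translation factor eIF2, whose phosphorylation triggers the integrated stress response, and the series follows the transcriptome through that response. The cells grew on fibronectin and were lit without pause with blue light of 1 intensity for 0, 60, 120, 240, 480, 600 or 720 min and lysed at once. A single library was made for each time, so there were 7 groups of 1 library and no value below has a replicate. Cells kept dark for the later times, or lit without the fusion, were not analysed here, so light and time in the plate cannot be told apart. The sources used here do not say whether the line is a single clone.

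HSP70 proteins bind unfolded stretches of other proteins in a cycle of ATP binding and hydrolysis. J-domain proteins bring them their clients and stimulate hydrolysis, and HSP110 proteins and other exchange factors release the nucleotide. HSP90 takes over partly folded clients such as steroid receptors and kinases, with co-chaperones choosing the client, and CDC37 is the one that recruits protein kinases. In unstressed cells these chaperones hold heat shock factor 1 (HSF1) inactive. When proteins unfold, HSF1 is released, forms trimers and binds heat shock elements, which are inverted repeats of the unit GAA, in the promoters of the inducible chaperones.

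The promoters are shown because several of these genes are known targets of HSF1, whose part in their courses was not tested. The sequences are the 200 bases before the RefSeq transcription start in GRCh38.p14, 5′ to 3′ on the gene's strand. Capitals mark matches to a 2-unit heat shock element, GAANNTTC or TTCNNGAA. HSPA1A and HSPA1B are the inducible HSP70 pair, HSPA8 and HSP90AA1 carry a 3-unit element, and CDC37 has no match. The windows lie on the plus strand of chromosome 6 for HSPA1A (chr6:31815343-31815542) and HSPA1B (chr6:31827538-31827737). Those of HSPA8 (chr11:123062137-123062336), HSP90AA1 (chr14:102087045-102087244) and CDC37 (chr19:10403543-10403742) lie on the minus strand. For HSP90AA1 this is 1 of 2 annotated starts, and the window of the other had no match to the 2-unit element.
HSPA1A: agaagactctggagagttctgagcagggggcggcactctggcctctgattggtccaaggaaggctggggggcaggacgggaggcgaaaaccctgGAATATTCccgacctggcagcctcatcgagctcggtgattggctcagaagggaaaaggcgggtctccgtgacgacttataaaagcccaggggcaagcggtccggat
HSPA1B: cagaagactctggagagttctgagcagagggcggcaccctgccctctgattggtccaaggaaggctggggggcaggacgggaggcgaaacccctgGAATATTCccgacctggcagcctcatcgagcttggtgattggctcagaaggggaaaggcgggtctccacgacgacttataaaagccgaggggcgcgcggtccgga
HSPA8: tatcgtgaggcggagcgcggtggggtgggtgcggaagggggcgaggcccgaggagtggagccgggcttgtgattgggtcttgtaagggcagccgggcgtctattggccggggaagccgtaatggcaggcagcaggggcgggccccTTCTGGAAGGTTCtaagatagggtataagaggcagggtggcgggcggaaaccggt
HSP90AA1: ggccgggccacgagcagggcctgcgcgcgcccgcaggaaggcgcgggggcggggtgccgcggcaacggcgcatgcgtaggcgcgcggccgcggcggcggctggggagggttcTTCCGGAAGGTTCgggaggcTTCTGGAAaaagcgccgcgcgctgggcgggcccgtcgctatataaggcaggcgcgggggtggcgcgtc
CDC37: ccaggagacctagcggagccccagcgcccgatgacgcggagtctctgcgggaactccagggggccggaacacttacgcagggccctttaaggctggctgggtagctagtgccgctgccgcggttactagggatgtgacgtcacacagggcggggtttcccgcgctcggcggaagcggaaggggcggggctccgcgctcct

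The windows of HSPA1A and HSPA1B were 93.5% identical, with 13 single-base edits, and each held 1 copy of GAATATTC. In HSPA8 the run TTCTGGAAGGTTC lay between 55 and 43 bases before the start, and in HSP90AA1 the run TTCCGGAAGGTTC lay between 88 and 76 bases before it. Over the full windows of 300 bases, from 250 before to 50 after the start, the 10 genes had 15 annotated starts. The 3-unit element, GAANNTTCNNGAA or TTCNNGAANNTTC, was found in 4 of these 15 windows, those of HSPA8, HSP90AA1, HSP90AB1 and DNAJA1, and in 0.49% of all 35116 windows. The 2-unit element, which each 3-unit element contains, was found in 9 of 15 windows and in 13.5% of all windows. HSPH1 and CDC37 had no window with either. CCAAT, searched on both strands as the elements were, was in 7 of 15 member windows against 34.6% of all. TGATGNAA, the core of the composite element read by ATF4, a transcription factor of the integrated stress response, was in 0 of 15 member windows and 3.62% of all. These are letter matches and not measured binding.

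The 6 complete libraries held 7048253 to 8911818 transcripts in genes. The 480 min table stops in the alphabet at NME1-NME2 and held 5266123. The 10 genes all lie within its range, but a few partner genes named below were measured in 6 libraries only. Transcripts here are counts of unique molecular identifiers (UMIs), the random tags that mark single molecules, corrected for collisions between the 4096 possible tags. Levels are in CPM, counts scaled to a common depth with normalised library sizes. The method counts 3′ ends, so gene length does not enter a level. Of 10 glial and neural stem cell genes, VIM (682 to 886 CPM), CD44 (495 to 703 CPM) and SOX9 (44.4 to 96.4 CPM) were well detected, whereas the astrocyte genes GFAP and S100B had no row and AQP4 had at most 1 count. SOX2 stood at 16 to 54.6 CPM, OLIG2 at 5.09 to 20.5 and SLC1A3 at 8.31 to 16.1. The neural stem cell gene NES reached only 0.202 to 1.65 CPM. The summed level of the glial list ranged from 1283 to 1723 CPM, most of it from VIM and CD44. The T cell gene CD3E had no row and PTPRC, a gene of all leukocytes, had at most 3 counts. CD68, also on the immune list, had 45 to 69 counts. Of the epithelial genes looked at, KRT18 stood at 96.2 to 183 CPM and KRT8 at 10.7 to 22.3 CPM. EPCAM had at most 2 counts and CDH1 at most 1.

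Together the 10 genes took 6695 CPM at 0 min, 6473 at 60, 5880 at 120, 4850 at 240, 4277 at 480, 4525 at 600 and 4958 at 720 min. The total was therefore lowest at 480 min and had not returned to its first value at 720 min. The counts that follow leave out CDC37, which was chosen for its dip. Relative to the 0 min library, 6 of the 9 chaperone genes were lower at 60 min and 8 at 120 min, where 51.7% and 51.9% of all genes compared were lower. Counted in transcripts, all 9 were lower at 240, 480, 600 and 720 min, where the share of all genes was between 49.1% and 50.5%. In reads HSPB1 was at 102% of its first level at 240 min. In uncorrected UMIs HSPA8 was at 101% and HSP90AB1 at 109% at 720 min. The median log2 ratio of the 9 was -0.08 at 60 min, -0.28 at 120, -0.61 at 240, -0.73 at 480, -0.84 at 600 and -0.57 at 720 min, while the median over all genes compared stayed between -0.03 and 0.02. Counts at least 2-fold lower were seen for 0 of the 9 at 60 min, against 0.411% of all genes compared, and for 1 at 120 min, against 3.11%. There were 2 such genes at 240 min and 3 at 480 min, against 6.13% and 6.4%, and CDC37 was a further one at 240 min. At 600 min and at 720 min there were 2, against 4.59% and 4.64%. All of these ratios share the 0 min library. In bulk RNA, fewer cells with a transcript and less of it per cell cannot be told apart.

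**Figure D1:**
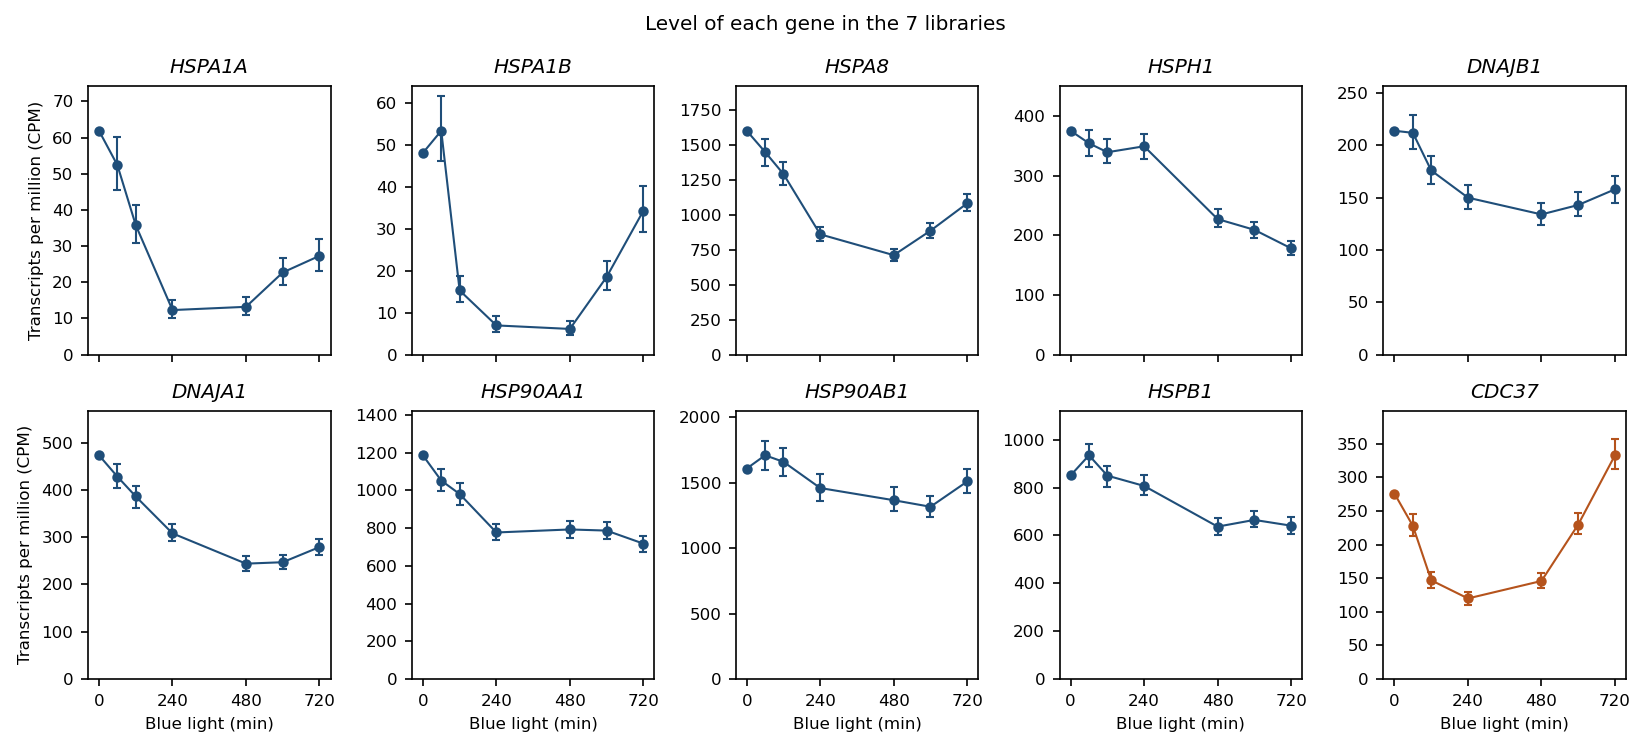
Level of each of the 10 genes in CPM (vertical axes, each from 0) against minutes of blue light (horizontal axes), 1 library per time. Bars are 95% intervals of the ratio to the 0 min library for counting and UMI collision error; HSPA1A and HSPA1B are lowest at 240 and 480 min and partly return, HSPH1 is lowest at 720 min, and CDC37 has its lowest level, 120 CPM, at 240 min and its highest, 333 CPM, at 720 min.

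Courses over time were tested with edgeR's quasi-likelihood test across all genes, with Benjamini-Hochberg adjustment and a threshold of 0.05. The trend is the fitted log2 change from 0 to 720 min. The bend is how far the fitted log2 level midway, at 360 min, lies from the average of the fitted ends (0 and 720 min). A negative bend is called a dip here, although an early fall that then levels off also gives one. Among the 9 chaperone genes, 4 had a falling trend (HSPH1, DNAJA1, HSP90AA1 and HSPB1), where 2.96% of all tested genes fell and 6.86% had a trend in either direction. A dip was called for 5 (HSPA1A, HSPA1B, HSPA8, DNAJB1 and DNAJA1), where 13.7% of all tested genes had one and 31.2% bent in either direction. DNAJA1 had both, and HSP90AB1 had neither. Of the genes with a dip, HSPA1A, HSPA1B and HSPA8 were higher at 720 than at 240 min. DNAJB1 did not differ between these times beyond counting error (log2 step 0.08, -0.04 to 0.20), and DNAJA1 was lower (-0.15, -0.24 to -0.05). None of the 9 had a rising trend, called for 3.9% of all tested genes, or an upward bend, called for 17.5%. By the same edgeR test unadjusted p was below 0.05 for 7 of the 9 trends, and these 7 were all negative. The share of all tested genes at that unadjusted threshold is not given here, so this count has no background to stand against. The median trend of the 9 was -0.71 and the median bend -0.44, against -0.02 and 0.01 over all tested genes. Because the 9 were chosen with earlier results of these data known, the choice may have shaped these contrasts. With 1 library per time, the error in these tests is the departure from the fitted line or curve, which may be technical. Leaving out the 60, 120, 480 or 600 min library left 1 falling trend each time and leaving out 720 min left 2. Trends called over all genes, in either direction, were 282, 354, 627, 135 and 469 in these fits, against 930 with all libraries. Without the 240 min library 2 dips were called, where bends over all genes were 1320 against 4238. On a time axis of log2(minutes + 60) there were 0 dips, and on the rank of the time point 1. Bends over all genes on these axes were 3930 and 4552.

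**Figure D2:**
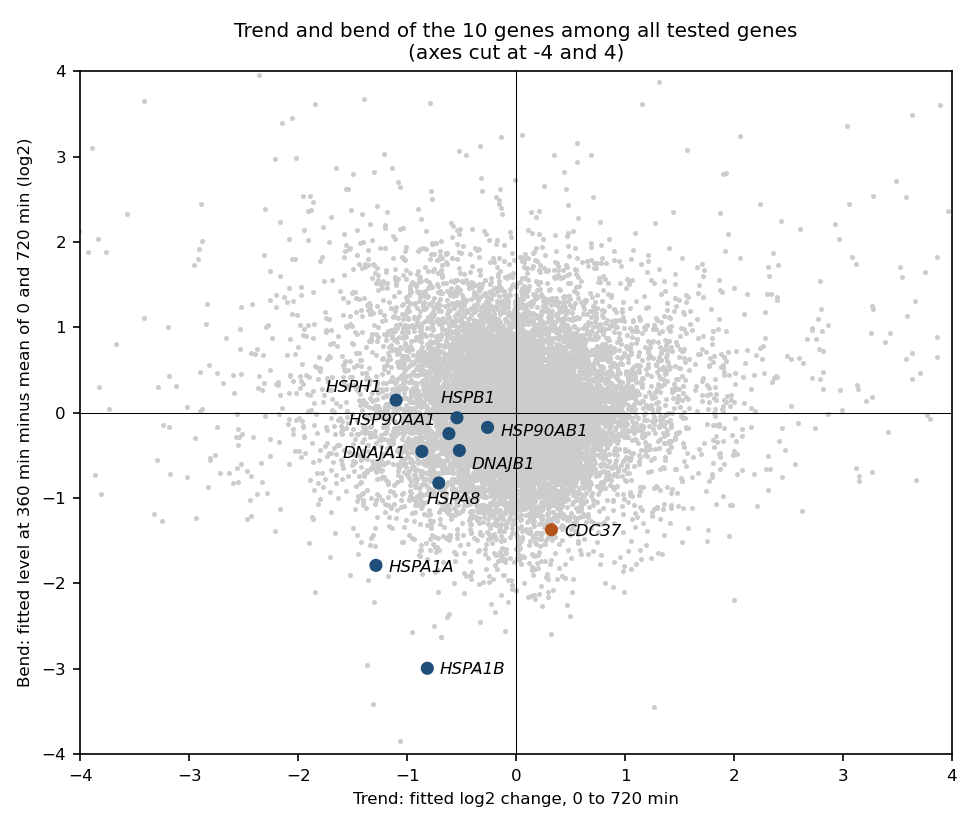
Bend (vertical axis, log2) against trend (horizontal axis, log2 change from 0 to 720 min) for all 13566 tested genes in grey, the 9 chaperone genes in blue and CDC37 in orange; both axes are cut at -4 and 4. All 9 chaperone genes lie left of 0 on the trend axis, and HSPA1A and HSPA1B lie lowest at bends of -1.79 and -2.99.

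HSPA1A and HSPA1B, which encode the stress-inducible HSP70, had the deepest dips of the 9. HSPA1A stood at 61.9 CPM at 0 min, 52.4 at 60, 35.8 at 120, 12.3 at 240, 13.2 at 480, 22.7 at 600 and 27.3 at 720 min. All 6 lit libraries were below the first, and the lowest level, at 240 min, was 19.9% of it (log2 ratio -2.33, 95% interval -2.63 to -2.03 for counting and collision error). From 240 to 480 min the level did not differ beyond counting error (log2 step 0.11, -0.26 to 0.47), and from 480 to 600 min it was higher by 0.78 (0.46 to 1.10). At 720 min it remained at a log2 ratio of -1.18 (-1.42 to -0.95). The bend was -1.79 ± 0.30 (SE; adjusted p = 0.00227 by edgeR's quasi-likelihood test), lower than in all but 0.634% of tested genes. The trend of -1.29 ± 0.56 did not pass (adjusted p = 0.209). On the rank and log2 time axes the dip did not pass either (adjusted p = 0.0512 and 0.269).

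HSPA1B started at 48.1 CPM and was not distinguishable from that at 60 min, with 53.4 CPM (log2 ratio 0.15, -0.06 to 0.36). It then stood at 15.3 CPM at 120 min, 6.95 at 240, 6.11 at 480, 18.5 at 600 and 34.3 at 720 min. Behind these levels were 408 transcripts at 0 min and 60 at 480 min, where the level was 12.7% of the first (log2 ratio -2.98, -3.37 to -2.58). The step from 60 to 120 min, -1.80 (-2.10 to -1.50), was steeper than that of HSPA1A over the same hour, -0.55 (-0.78 to -0.32), and the 2 intervals do not overlap. From 240 to 720 min HSPA1B was higher by 2.30 (1.90 to 2.70). Its bend was -2.99 ± 0.52 (edgeR adjusted p = 0.00641), and 0.0369% of tested genes had a lower one. Its trend was -0.82 ± 0.84 (edgeR adjusted p = 0.614). Without the 240 min library the bend was -2.73 and no longer passed (edgeR adjusted p = 0.0621).

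The coding sequences of HSPA1A and HSPA1B are 99.8% identical, with 4 edits in 1926 bases (GENCODE release 29). Their 3′ untranslated regions, of 264 and 379 bases, differ by 176 edits. This gives 53.6% identity over the longer one, with the difference in length counted as edits. By the same measure the last 200 bases of the transcripts are 47% identical. The sources used here do not say how reads that match both were counted, so the division between the pair is uncertain. Their sum was 110 CPM at 0 min, 106 at 60, 51.1 at 120, 19.2 at 240, 19.3 at 480, 41.2 at 600 and 61.6 at 720 min. As 1 row the pair had a bend of -2.33 ± 0.35 (edgeR adjusted p = 0.00223), so the dip was also present where reads were not divided between them.

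HSPA8 encodes the constitutive cytosolic HSP70, HSC70. It stood at 1601 CPM at 0 min, 1449 at 60, 1291 at 120, 860 at 240, 711 at 480, 886 at 600 and 1082 at 720 min. Each step down to 480 min and each step up after it was larger than its counting error. The level at 480 min was 44.4% of that at 0 min (log2 ratio -1.17, -1.26 to -1.08). The bend was -0.82 ± 0.12 (edgeR adjusted p = 0.00116) and remained past the threshold without any 1 library. It did not pass on the log2 time axis (adjusted p = 0.379), and the trend of -0.71 ± 0.27 did not pass (edgeR adjusted p = 0.156).

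HSPA8 used 96.4% of the 4096 tags at 0 min and 82.1% at 480 min, a range in which the collision correction is steep. Reads per UMI for the gene went from 12.9 at 0 min to 4.96 at 480 min. Counted in reads, its level after 60 min was 67% of the first, and it was 35.1% at 240, 26.5% at 480 and 44.9% at 720 min. Counted in uncorrected UMIs it was 73.5% at 480 min and 101% at 720 min. The 3 counts share the low point at 480 min and the higher level after it, but they differ on how deep it was and on whether the first level was regained. The contribution of tag saturation to that difference was not tested.

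HSPH1 encodes HSP105, an HSP110 protein that exchanges nucleotide on HSP70. Its course differed in shape: 375 CPM at 0 min, 354 at 60, 339 at 120, 349 at 240, 227 at 480, 209 at 600 and 178 at 720 min. The 4 libraries up to 240 min lay close together and the 3 later ones below them. At 240 min, when HSPA1A and HSPA1B were near their lowest, the log2 ratio of HSPH1 was -0.10 (-0.19 to -0.02). From 240 to 480 min it was lower by a further log2 step of -0.62 (-0.72 to -0.53), and at 720 min the ratio was -1.08 (-1.18 to -0.98). HSPH1 fell by a trend of -1.10 ± 0.16 (edgeR adjusted p = 0.00518), and this call held without each library in turn and under every other setting tried. Its bend was 0.15 ± 0.13 (edgeR adjusted p = 0.411), although it passed as an upward bend on the log2 time axis (0.42, adjusted p = 0.0307). Per HSPA8 transcript, HSPH1 was 1.73 times its first ratio at 240 min and 0.701 times at 720 min; in reads the values were 2.63 and 0.876.

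DNAJB1, the HSP40 protein that activates HSP70 and is itself induced by heat, moved over the narrowest range of the 5 genes with a dip, 1.6-fold. It stood at 214 CPM at 0 min, 212 at 60, 176 at 120, 150 at 240, 134 at 480, 143 at 600 and 158 at 720 min. The first 2 libraries did not differ beyond counting error (log2 ratio -0.01, -0.12 to 0.10), and the lowest, at 480 min, had a ratio of -0.68 (-0.79 to -0.57). The bend of -0.44 ± 0.13 passed (edgeR adjusted p = 0.0262), and the trend of -0.52 ± 0.20 did not (edgeR adjusted p = 0.153). Without the 120, 240, 480 or 720 min library the bend stayed between -0.46 and -0.42 but did not pass, with adjusted p of 0.0503, 0.103, 0.0684 and 0.107 in that order. It also missed on the rank and log2 time axes (adjusted p = 0.109 and 0.614).

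DNAJA1, a farnesylated HSP40 protein, stood at 473 CPM at 0 min, 428 at 60, 386 at 120, 308 at 240, 244 at 480, 247 at 600 and 279 at 720 min. It stepped down through 480 min to 51.6% of the first level (log2 ratio -0.95, -1.04 to -0.86), did not differ between 480 and 600 min (log2 step 0.02, -0.08 to 0.11), and was higher again at 720 min by 0.18 (0.08 to 0.27). The trend was -0.87 ± 0.19 (edgeR adjusted p = 0.0267) and the bend -0.45 ± 0.12 (edgeR adjusted p = 0.0138). The trend lost its call without the 60, 120, 480 or 600 min library, with adjusted p of 0.0989, 0.0716, 0.0504 and 0.142. The bend lost its call without 240 or 720 min (adjusted p = 0.0572 and 0.121), and on the rank and log2 time axes (0.165 and 0.975). Relative to HSPA8, both J-domain genes were higher at 480 min than at first, DNAJB1 by 1.41 times and DNAJA1 by 1.16 times; in reads the factors were 2.27 and 1.67.

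HSP90AA1 encodes the inducible cytosolic HSP90. It stood at 1186 CPM at 0 min, 1052 at 60, 981 at 120, 777 at 240, 793 at 480, 787 at 600 and 718 at 720 min. Most of the decrease thus lay in the libraries up to 240 min. In consecutive steps the levels of 240, 480 and 600 min did not differ beyond counting error. From 600 to 720 min the level was lower by a further log2 step of -0.13 (-0.21 to -0.06). At 720 min the log2 ratio was -0.72 (-0.81 to -0.64). Its trend of -0.62 ± 0.15 passed narrowly (edgeR adjusted p = 0.039), and its bend of -0.25 ± 0.12 did not (edgeR adjusted p = 0.143). The trend missed the threshold with read counts (-0.81, adjusted p = 0.0504), with uncorrected UMIs (-0.28, adjusted p = 0.218), and without any 1 library except that of 240 min (adjusted p between 0.0701 without 0 min and 0.134 without 600 min; 0.114 without 60, 0.095 without 120, 0.0823 without 480 and 0.0972 without 720 min). Without 720 min its bend passed instead (-0.47, adjusted p = 0.0353).

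HSP90AB1, the constitutive HSP90, was the steadiest of the 10 in transcripts. It stood at 1608 CPM at 0 min, 1709 at 60, 1659 at 120, 1459 at 240, 1366 at 480, 1316 at 600 and 1509 at 720 min, so that its highest library was 1.3 times its lowest. The lowest ratio, at 600 min, was -0.29 (-0.38 to -0.20), and the ratio at 720 min was -0.09 (-0.18 to 0.00). Neither the trend (-0.26 ± 0.13, edgeR adjusted p = 0.257) nor the bend (-0.17 ± 0.11, edgeR adjusted p = 0.25) passed. The gene used 93.8% to 96.4% of the tags in every library, a range in which the collision correction is steep. In reads it was 85.5% of its first level at 60 min, where transcripts gave 106%, and 93.4% at 120 min, where transcripts gave 103%. The lowest value in reads was 67.2%, at 600 min, and at 720 min it was 80.2%. Per HSP90AB1 transcript, HSP90AA1 was 0.721 times its first ratio at 240 min and 0.645 times at 720 min, and in reads 0.693 and 0.604 times.

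HSPB1, the small heat shock protein HSP27, which holds unfolding proteins without ATP, stood at 851 CPM at 0 min, 935 at 60, 850 at 120, 807 at 240, 637 at 480, 665 at 600 and 641 at 720 min. As with HSPH1, the 4 libraries up to 240 min lay above the 3 later ones. The step from 240 to 480 min was -0.34 (-0.42 to -0.26), and the 3 later libraries did not differ from one another beyond counting error in consecutive steps. The trend of -0.54 ± 0.13 passed (edgeR adjusted p = 0.0378) and the bend of -0.06 ± 0.12 did not (edgeR adjusted p = 0.732). The trend lost its call with uncorrected UMIs (adjusted p = 0.212), without a count minimum (0.0511), and on the log2 and rank time axes (0.0724 and 0.0721). It lost it too without the 60, 120, 480, 600 or 720 min library, with adjusted p of 0.138, 0.11, 0.0771, 0.16 and 0.082. In reads HSPB1 was 102% of its first level at 240 min and 70.8%, 68.3% and 66.8% at the last 3 times.

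**Figure D3:**
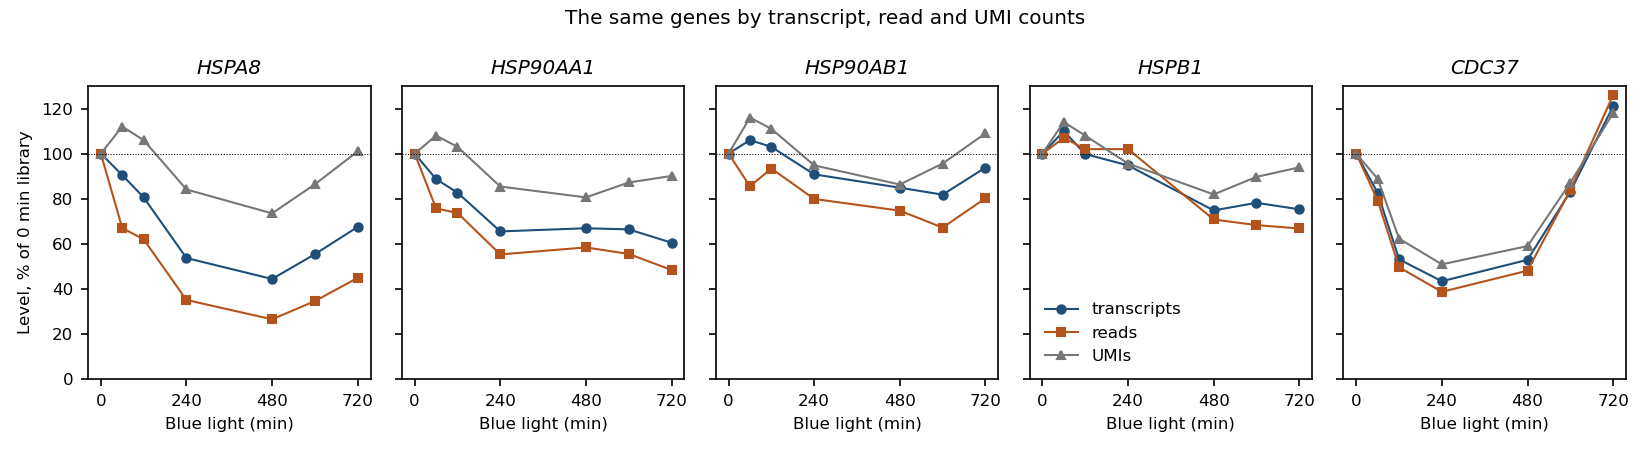
Level as % of the 0 min library (vertical axis, from 0) against minutes of blue light for HSPA8, HSP90AA1, HSP90AB1, HSPB1 and CDC37, counted as collision-corrected transcripts (blue circles), reads (orange squares) and uncorrected UMIs (grey triangles), 1 library per time. For HSPA8 the 3 counts give 44.4%, 26.5% and 73.5% at 480 min, whereas for CDC37 at 240 min they give 43.4%, 38.7% and 50.9%.

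CDC37 stood at 276 CPM at 0 min, 228 at 60, 147 at 120, 120 at 240, 146 at 480, 230 at 600 and 333 at 720 min. The low point was the library of 240 min, at 43.4% of the first level (log2 ratio -1.20, -1.32 to -1.09), and the highest level was that of the last library, at a ratio of 0.27 (0.18 to 0.37). In transcripts and in reads, CDC37 was the only gene of the 10 above its first level at 720 min. From 240 to 720 min it was higher by 1.47 (1.36 to 1.59), a factor of 2.78. Its fitted bend was -1.37 and its fitted trend 0.32, given without a test because the dip put it among these genes. Without the 720 min library the fitted trend was -0.31 and the bend -1.72. With reads the bend was -1.57 and with uncorrected UMIs -1.13. The gene used 23.3% to 46% of the tags, far from the range where HSPA8 and HSP90AB1 lay.

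The amount of CDC37 per HSP90 transcript therefore changed over time. Per HSP90AB1 transcript it was 0.777 times its first ratio at 60 min, 0.514 at 120, 0.479 at 240, 0.623 at 480, 1.02 at 600 and 1.29 at 720 min. In reads the same ratios were 0.926, 0.531, 0.484, 0.644, 1.25 and 1.58. Both count types thus place the lowest ratio to HSP90AB1 at 240 min and the highest at 720 min. Per HSP90AA1 transcript it was 0.931 times its first ratio at 60 min, 0.642 at 120, 0.663 at 240, 0.791 at 480, 1.25 at 600 and 1.99 at 720 min. In reads these were 1.05, 0.674, 0.699, 0.824, 1.51 and 2.61, so the ratio to HSP90AA1 was lowest at 120 min in both count types.

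The courses of the genes were alike to different degrees. Over the 7 libraries, which all genes share together with their depth and scaling, Pearson's r of log2(CPM + 1) was 0.97 between HSPA8 and DNAJB1, 0.96 between HSPA1A and HSPA8, and 0.96 between DNAJB1 and DNAJA1. HSPH1 was closest to HSPB1 (0.93) and had 0.42 with HSPA1A and 0.15 with HSPA1B. CDC37 was closest to HSPA1B (0.84) and had -0.36 with HSPH1. These values describe 7 points and carry no test.

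Among 4427 genes with a mean of at least 20 CPM and a value at 480 min, the 5 whose course was most like that of DNAJB1 were EMP2 (r = 0.987), CD276 (0.985), CLSTN3 (0.981), NLGN2 (0.981) and CBR1 (0.980). For HSPA8 they were E2F1 (0.994), NLGN2 (0.991), CD276 (0.989), EIF4EBP2 (0.978) and ENGASE (0.975). E2F1, a transcription factor of the cell cycle, stood at 38.6 CPM at 0 min, 21.9 at 480 min and 28.6 at 720 min. For CDC37 the closest were LOC407835 (0.990), ARMC5 (0.989), EMP3 (0.989), FAM3A (0.989) and GSTP1 (0.986). GSTP1, a glutathione transferase, stood at 410 CPM at 0 min, 255 at 240 min and 433 at 720 min. None of the 10 genes is in any of these lists of 5, and likeness over 7 libraries is a description.

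The surrounding network was read from 8 lists of partners and regulators, some of which share genes. Over all tested genes 3.9% rose, 2.96% fell, 17.5% bent upward and 13.7% dipped, and each list's counts stand against these shares. Among 7 tested heat shock factors and their repressors, HSF1 dipped, HSF2 bent upward and HSBP1L1 rose. HSF1, the regulator of the inducible chaperones, went from 32.9 CPM at 0 min to 20.3 at 240 min and 38 at 720 min (bend -0.70 ± 0.19, edgeR adjusted p = 0.0159). HSF2, a second factor that can pair with it, went from 30.6 CPM to 53.7 at 120 min and 24.9 at 720 min (bend 0.77 ± 0.25, edgeR adjusted p = 0.0343). HSBP1L1, related to an HSF1-binding repressor, went from 19.7 to 46.9 CPM (trend 1.49 ± 0.28, edgeR adjusted p = 0.0156). HSF1 lost its call without 0 or 240 min (adjusted p between 0.0904 and 0.112), HSF2 without 0, 60 or 240 min (0.0745 to 0.225), and HSBP1L1 without 600 min (0.092). The list had a median trend of 0.40 and a median bend of -0.10.

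Of the other HSP70 and HSP110 genes, 6 of 9 were tested. HSPA2 fell from 7.12 CPM at 0 min to 2.12 at 720 min (trend -2.26 ± 0.42, edgeR adjusted p = 0.0154), and HSPA1L, the neighbour of HSPA1A, dipped at 9 to 25 transcripts per library (bend -1.31 ± 0.42, edgeR adjusted p = 0.034). HSPA4, an HSP110 protein like HSPH1, stood at 356 CPM at 0 min, 298 at 240 min and 247 at 720 min and passed neither test (edgeR adjusted p = 0.526 for the trend and 0.444 for the bend). HSPA6, an HSP70 gene that is nearly silent until strong heat shock, had 12 transcripts at 0 min and 1 to 8 in the later libraries and was not tested. HSPA2 lost its call without 60 or 600 min (adjusted p = 0.0561 to 0.0724), and HSPA1L without 0, 240, 480 or 720 min (0.0574 to 0.232). HSPA1L also lost it with reads, with DESeq2 and on the log2 and rank time axes (adjusted p up to 0.258). The list had a median trend of -0.24 and a median bend of -0.07.

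Of 13 other J-domain genes tested, 4 bent upward and 0 dipped, where 17.5% and 13.7% of all genes did, and DNAJB2 rose, where 3.9% did. DNAJC2, a ribosome-bound J-domain protein, went from 317 CPM at 0 min to 578 at 240 min and 369 at 720 min (bend 0.74 ± 0.14, edgeR adjusted p = 0.00281). DNAJB4 went from 14 CPM to 32.1 at 480 min and 17.3 at 720 min, and DNAJC6, which uncoats clathrin vesicles, from 33.5 to 90.3 and 56.5 CPM. The fourth was DNAJB6, at 166, 231 and 187 CPM at the same times. The call of DNAJC2 held without each library. DNAJB4 and DNAJC6 lost theirs without 720 min (adjusted p = 0.108 and 0.17), DNAJB6 without any 1 library except that of 60 min (0.0511 to 0.149), and DNAJB2 without 60, 120, 480, 600 or 720 min (0.0577 to 0.178). DNAJB6 also lost its call with reads, with UMIs, without a count minimum, with DESeq2 and on both other time axes (adjusted p up to 0.323). DNAJC6 and DNAJB2 lost theirs on both other time axes (up to 0.679 and 0.178), and DNAJB4 on the log2 axis (0.404). The list had a median trend of 0.20 and a median bend of 0.30.

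Among 9 exchange factors and regulators of HSP70, HSPBP1, BAG3 and STUB1 dipped, where 13.7% of all genes did, and ST13 fell, where 2.96% did. BAG3, an exchange factor induced by HSF1, stood at 112 CPM at 0 min, 60.2 at 480 min and 75.3 at 720 min (bend -0.48 ± 0.15, edgeR adjusted p = 0.0339). HSPBP1, an exchange factor, stood at 251 CPM at 0 min, 152 at 240 min and 240 at 720 min (bend -0.66 ± 0.15, edgeR adjusted p = 0.00826). STUB1, the ubiquitin ligase CHIP, and ST13, the cofactor HIP, were measured in 6 libraries. STUB1 went from 40 CPM to 23.4 at 240 min and 42.4 at 720 min, and ST13 from 381 to 225 CPM at 720 min (trend -0.74 ± 0.18, edgeR adjusted p = 0.0468). BAG3 lost its call without 60, 120, 240, 480 or 720 min (adjusted p = 0.0594 to 0.127), HSPBP1 without 0 min (0.0535), STUB1 without 0, 60, 120 or 240 min (0.0575 to 0.386), and ST13 without any 1 library except that of 240 min (0.0571 to 0.226). BAG3 and STUB1 also lost theirs with reads, BAG3 on both other time axes (adjusted p up to 0.817), and ST13 without a count minimum (0.0527). The list had a median bend of -0.23. Of 8 other small heat shock proteins 4 were tested and none passed, and CRYAB had at most 7 transcripts.

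Of 20 other HSP90 co-chaperones, 6 dipped, 2 bent upward and none had a trend, where 13.7%, 17.5% and 6.86% of all genes did. FKBP4, an immunophilin of steroid receptor complexes, stood at 532 CPM at 0 min, 347 at 240 min and 522 at 720 min (bend -0.67 ± 0.11, edgeR adjusted p = 0.00201). STIP1, or HOP, which links HSP70 to HSP90, stood at 285, 175 and 251 CPM at those times in 6 libraries (bend -0.81 ± 0.17, edgeR adjusted p = 0.00404). AHSA1, which stimulates the HSP90 ATPase, stood at 86.1, 53.3 and 85.5 CPM (bend -0.70 ± 0.19, edgeR adjusted p = 0.0168). FKBP8 dipped to 12.3 CPM at 480 min from 22.8 (bend -1.30 ± 0.23, edgeR adjusted p = 0.00228), and PPP5C and NUDC also dipped.

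CDC37L1, a relative of CDC37, bent upward, whereas CDC37, picked for its dip, bent downward. CDC37L1 stood at 13.1 CPM at 0 min, 20.1 at 60, 35.5 at 120, 41 at 240, 38 at 480, 28.2 at 600 and 25.1 at 720 min (bend 1.27 ± 0.26, edgeR adjusted p = 0.0042). At 720 min both genes were above their first level, by log2 ratios of 0.94 (0.60 to 1.28) for CDC37L1 and 0.27 (0.18 to 0.37) for CDC37. CHORDC1 was the other co-chaperone with an upward bend, at 107 CPM at 0 min, 171 at 480 min and 128 at 720 min. PTGES3, or p23, passed neither test (edgeR adjusted p = 0.222 for the trend and 0.538 for the bend). The calls of FKBP4, STIP1 and CDC37L1 held without each library in turn. AHSA1 lost its call without 240 or 720 min (adjusted p = 0.103 to 0.331), FKBP8 without 720 min (0.0569), PPP5C without 120, 240 or 720 min (0.0549 to 0.286), NUDC without 0, 120 or 240 min (0.0772 to 0.31), and CHORDC1 without 0, 240 or 480 min (0.0573 to 0.0905). On the log2 time axis AHSA1, FKBP8, PPP5C, NUDC and CHORDC1 all lost their calls, AHSA1 and PPP5C also on the rank axis, and NUDC with reads; the highest adjusted p over the alternatives were 0.347, 0.101, 0.288, 0.31 and 0.106 in that order. The list had a median trend of -0.11 and a median bend of -0.07.

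Of 20 known HSF1 targets outside the 10 genes, 18 were tested, 7 dipped and 3 bent upward, where 13.7% and 17.5% of all genes did. The dips were those of FKBP4, STIP1, AHSA1 and BAG3, already given, and of HSPE1, SERPINH1 and UBB. HSPE1, the mitochondrial co-chaperonin HSP10, stood at 669 CPM at 0 min, 396 at 240 min and 487 at 720 min (bend -0.55 ± 0.15, edgeR adjusted p = 0.0158). The upward bends were those of DNAJB4, CHORDC1 and ZFAND2A, the last at 47.2 CPM at 0 min, 97.5 at 240 min and 118 at 720 min in 6 libraries. At 240 min, 15 of the 18 tested were below their first level, with a median log2 ratio of -0.38, where 49.1% of all genes compared were. At 720 min 12 of the 18 were, with a median of -0.07, where 50.5% of all genes compared were. The list had a median bend of -0.42, against 0.01 over all genes. HSPE1 lost its call without 0, 240 or 720 min (adjusted p = 0.0633 to 0.132), SERPINH1 without 0, 120, 240 or 720 min (0.0526 to 0.125), UBB without 0, 120, 240, 600 or 720 min (0.06 to 0.412), and ZFAND2A without 0, 120 or 240 min (0.0646 to 0.398). All 4 lost their calls on the log2 time axis, and HSPE1, SERPINH1 and UBB on the rank axis. SERPINH1 lost it with UMIs as well, and UBB with reads, UMIs and DESeq2; over the alternatives adjusted p reached 0.366 for HSPE1, 0.32 for SERPINH1 and 0.412 for UBB.

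The clients of CDC37 were looked at through 20 kinases known to depend on it and HSP90. Of these, 8 bent upward, 2 dipped and FYN rose, where 17.5%, 13.7% and 3.9% of all genes did. CDK6 stood at 188 CPM at 0 min, 370 at 480 min and 226 at 720 min (bend 0.76 ± 0.14, edgeR adjusted p = 0.0025). MET stood at 104, 205 and 119 CPM at those times, IKBKB went from 25.9 CPM to 50.7 at 240 min and CHUK from 48.6 to 81.2. LIMK1, PDPK1 and YES1 also bent upward. AKT2 stood at 146 CPM at 0 min, 69.6 at 240 min and 130 at 720 min (bend -1.09 ± 0.25, edgeR adjusted p = 0.00907), and CDK4 also dipped. FYN went from 10.6 CPM at 0 min to 55 at 480 min and 45.3 at 720 min (trend 2.82 ± 0.39, edgeR adjusted p = 0.00518). The median bend was 0.53, against 0.01 over all genes. The calls of FYN and CDK6 held without each library, but that of CDK6 was lost on the log2 time axis (adjusted p = 0.21). AKT2, CHUK, IKBKB and PDPK1 lost theirs without 0 or 240 min, with adjusted p up to 0.0671, 0.0917, 0.0932 and 0.273, and CDK4 without 0, 240 or 720 min, up to 0.0937. MET lost its call without 720 min (0.162), LIMK1 without 480 or 720 min (up to 0.168), and YES1 without 0, 120, 240 or 720 min (up to 0.111). These 3 also lost theirs on the log2 time axis, and LIMK1 on the rank axis; over the alternatives adjusted p reached 0.234 for MET, 0.569 for LIMK1 and 0.133 for YES1.

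**Figure D4:**
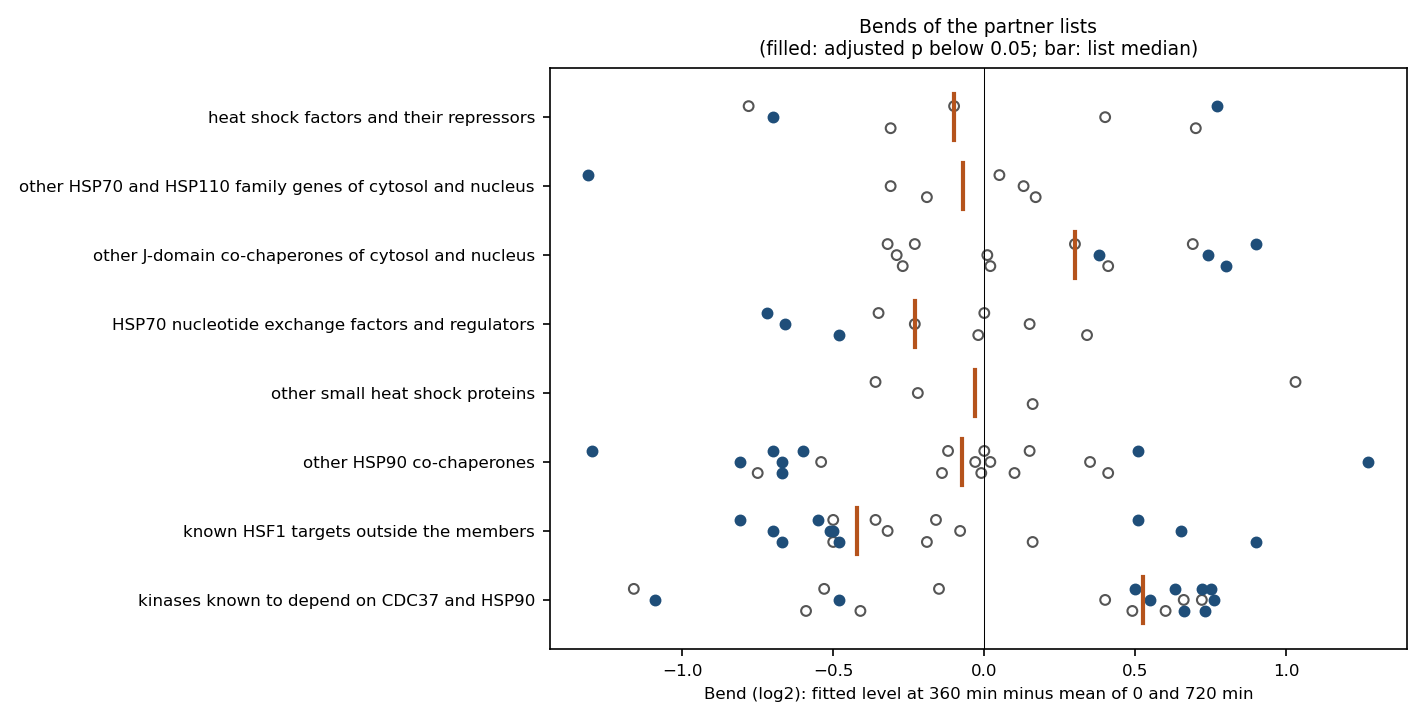
Bend (horizontal axis, log2) of each tested gene in the 8 partner lists (rows); filled points passed the edgeR test, open points did not, and orange bars are list medians, with some genes in more than 1 list. The median bend is -0.42 for the HSF1 targets and 0.53 for the kinases.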

How the data were processed

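The 7 libraries were made by an adaptation of CEL-Seq2, per the labels' protocols. The authors deposited tables of expected counts (reads, UMIs and collision-corrected transcripts) with 96 barcode columns, of which column 4 was read, as the labels name that primer; the other 95 were left out. BWA and hg19 are named in the submitters' processing notes; the sources used here state no versions, annotation or counter. Transcript counts were rounded, and 67 spike-in rows were left out.

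Tests used edgeR 4.0.16 (R 4.3.3), robust quasi-likelihood, on genes reaching 10 counts in 3 or more libraries, after TMM scaling over the 6 complete libraries; the 480 min library was scaled over the genes it lists. Genes that table does not reach were fitted on the 6 complete libraries, and p-values were adjusted together. For genes on 7 libraries the trend had 5 residual degrees of freedom and the bend 4. The fit was tested on simulated data. Single ratios to 0 min have no test, only 95% intervals: counting plus UMI collision error for genes with at least 50 counts in both libraries, exact binomial otherwise. Genes counted at 2-fold had at least 50 counts in either library. PCR reads are not independent molecules, so intervals cover counting error only.

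Members and lists were chosen with earlier results of these data known. The text names the 10 genes and, from each list, up to 4 genes per direction with the smallest p among those past the threshold, plus HSF1, BAG3, STIP1, AHSA1, PTGES3, FKBP4, HSPA4, HSPA6 and CRYAB; other genes were named, after their values were seen, to complete a count. Alternatives were read or UMI counts, DESeq2 1.42.0 on the same TMM library sizes, RLE (relative log expression) scaling computed by edgeR, and library totals. Others were different count minimums and time axes, each library left out, and HSPA1A and HSPA1B summed, the last added for the fits after seeing the data. Promoters are RefSeq's (GRCh38.p14), not the build of the counts. Values of some list genes are not reported here.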

Additional observations from a re-analysis of the deposited data

Results flagged for a closer look

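The barcode columns other than column 4, which the report does not use, held counts in every library. They took between 0.0448% and 0.0667% of a library's transcripts, the most in the 600 min library. No control for these columns was analysed here, and they enter no value above.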

How the results depend on the processing

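The number of the 9 chaperone genes with a falling trend was 4. It was 2 with uncorrected UMIs and between 1 and 4 when single libraries were left out. The number with a dip was 5. It was 0 on the log2 time axis, 1 on the rank axis, and between 2 and 5 without single libraries. Over all genes 930 trends were called, 1572 with DESeq2 and 135 to 1481 without single libraries, and 4238 bends, 1320 to 4307 without single libraries. Counts of the 10 genes at least 2-fold lower moved with reads from 1 to 2 at 120 min, from 3 to 5 at 480 min, from 2 to 5 at 600 min and from 2 to 4 at 720 min, and with uncorrected UMIs from 2 to 1 at 720 min. Smaller moves occurred too. In uncorrected UMIs CDC37 at 240 min (50.9% of its first level) and HSPA8 at 480 min (73.5%) were not 2-fold lower. In reads HSPA8 was past 2-fold at 240 min as well (35.1%). The log2 ratio of HSPA8 at 720 min was -0.57 in transcripts and 0.01 in uncorrected UMIs. The causes were not tested. Of 37 calls of partner genes, 31 were lost without some library, 1 on another setting alone and 5 under none tried, and 0 of those lost changed sign. No paired analysis was possible because each time has 1 library, all with replicate number 1. Saturated tags limit the sizes given for HSPA8, HSP90AB1, HSP90AA1 and HSPB1, and the few transcripts of HSPA1B at 240 and 480 min limit its ratios.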
